A study of Homo sapiens with 32 samples.

Results

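The 38 genes described here are 14 glycolytic enzymes and 24 other genes of the response to low oxygen. They were taken by gene symbol from the 25559 symbols counted in each library. The list was chosen with earlier results of these data known, so shares set against all genes describe it and do not test it. All 38 were found and all 38 were among the 17801 genes that passed the filter on low counts. They were measured by RNA sequencing of 4 established human T-cell lines: the T-cell acute lymphoblastic leukemia line PF382, the adult T-cell leukemia line TLOm1, and the cutaneous T-cell lymphoma lines H9 and HH. Each line gave 8 libraries after 96 hours of culture. Of these, 1 was untreated, 1 had romidepsin alone, 3 had rising azacitidine doses alone, and 3 had those doses together with romidepsin. Romidepsin inhibits histone deacetylases and was given once at the start, with PF382 receiving 1.25 nM and both TLOm1 and H9 receiving 1 nM. In HH the labels give 1 nM for romidepsin alone and 1.25 nM for its combinations. Azacitidine is a cytidine analog that inhibits DNA methyltransferases, and was added every day. PF382 and TLOm1 received 125, 250 or 500 nM per addition. The lymphoma lines received 50, 125 or 250 nM. Each line and condition has 1 library, so the lines serve as the replicates of a treatment. Tests across lines fit all 32 libraries at once, so their spread comes from every dose and not only from the groups compared. The doses that all 4 lines share are 125 and 250 nM. The combination labels give the azacitidine dose without a unit, and it was read as nM.

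Cells sense oxygen through prolyl hydroxylases, oxygen-dependent enzymes that mark the alpha subunits of hypoxia-inducible factor (HIF) for destruction. When oxygen is low, or when signalling raises HIF in normal air, the alpha subunits pair with ARNT and bind a short DNA element in the promoters and enhancers of their targets. The targets include glucose transporters, most steps of glycolysis, lactate dehydrogenase, a kinase that keeps pyruvate out of mitochondria, and genes of mitophagy, blood vessel growth and pH control. Proliferating and malignant T cells run a high rate of glycolysis in the presence of oxygen.

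The core of the HIF response element is ACGTG or GCGTG. Both were searched on both strands in the windows from 250 bases before to 50 after each annotated start in RefSeq (GRCh38.p14), a build other than the one the reads were aligned to. Windows were found for 34 of the 38 genes. The 5 stretches below are the 250 bases before the start of 4 genes that were lower with romidepsin and 250 nM azacitidine together and of PFKL, an enzyme that was not called there, read 5′ to 3′ in the direction of transcription, with each core or its reverse complement in capitals and overlapping matches merged.
PFKFB4 (chr3:48556804-48557053, strand -): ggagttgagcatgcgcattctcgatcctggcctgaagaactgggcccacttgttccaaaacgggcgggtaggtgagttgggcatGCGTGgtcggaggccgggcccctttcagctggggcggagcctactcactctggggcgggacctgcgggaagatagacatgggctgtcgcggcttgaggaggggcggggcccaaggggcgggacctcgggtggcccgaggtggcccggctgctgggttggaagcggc
ALDOC (chr17:28576896-28577145, strand -): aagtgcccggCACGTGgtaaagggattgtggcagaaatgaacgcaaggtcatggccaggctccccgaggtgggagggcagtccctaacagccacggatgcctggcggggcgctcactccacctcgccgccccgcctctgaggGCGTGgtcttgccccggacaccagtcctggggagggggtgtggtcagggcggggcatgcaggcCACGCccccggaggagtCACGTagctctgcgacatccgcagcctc
LDHA (chr11:18394313-18394562, strand +): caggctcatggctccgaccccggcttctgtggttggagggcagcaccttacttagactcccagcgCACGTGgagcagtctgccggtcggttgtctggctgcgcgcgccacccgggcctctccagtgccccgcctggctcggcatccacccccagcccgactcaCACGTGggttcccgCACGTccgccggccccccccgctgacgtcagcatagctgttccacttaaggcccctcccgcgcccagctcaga
BNIP3 (chr10:131981924-131982173, strand -): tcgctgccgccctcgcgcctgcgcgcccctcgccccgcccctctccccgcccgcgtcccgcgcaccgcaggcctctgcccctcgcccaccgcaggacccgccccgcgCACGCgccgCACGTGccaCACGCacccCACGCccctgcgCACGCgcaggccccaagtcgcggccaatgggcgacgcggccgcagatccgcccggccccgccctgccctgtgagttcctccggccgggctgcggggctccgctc
PFKL (chr21:44299803-44300052, strand +): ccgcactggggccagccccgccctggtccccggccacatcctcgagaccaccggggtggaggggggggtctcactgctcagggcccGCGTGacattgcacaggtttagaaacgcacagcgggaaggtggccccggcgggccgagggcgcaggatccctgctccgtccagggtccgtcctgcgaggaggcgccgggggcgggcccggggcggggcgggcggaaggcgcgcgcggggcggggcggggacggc
Counting each strand, so that a palindrome counts once on each, BNIP3 held 6 matches here, ALDOC and LDHA 5 each, and PFKFB4 and PFKL 1 each. A core was present in 75.4% of the 57 windows of the members and in 48.4% of 35116 windows of all genes. The 6-letter palindrome CACGTG, which contains ACGTG on both strands, was in 21.1% of the members' windows and 7.26% of all. PFKL shows that a core was also present at a gene that neither comparison with untreated libraries at 250 nM called. These matches describe the sequence and say nothing of whether HIF was bound.

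Total counts ran from 16175077 to 32496676 per library, which fixes the counting error of low genes such as EGLN3, ADM, CA9 and P4HA2. T-cell markers (10 genes) summed to between 1409 and 2246 CPM (counts scaled to library size) in all 32 libraries. Markers of erythroid cells stayed at or under 0.644 CPM in sum and those of myeloid cells at or under 11.7 CPM. The 5 epithelial markers summed to at most 217 CPM in TLOm1, 185 in H9, 132 in PF382 and 2.88 in HH, and the 5 B-cell markers to at most 95.8 in H9. With 250 nM azacitidine the epithelial keratins KRT8 and KRT18 rose by 3.11 ± 0.46 and 3.03 ± 0.56 on the log2 scale, the myeloid enzyme MPO rose by 5.80 ± 1.30, and the leukocyte gene PTPRC fell by 0.70 ± 0.17, 2 of 4 tested epithelial, 1 of 4 tested myeloid and 1 of 10 T-cell markers. From the untreated to the 250 nM azacitidine library, the summed epithelial markers went from 4.74 to 29.1 CPM in PF382, from 51.1 to 163 in TLOm1, from 0.873 to 1.05 in HH and from 104.2 to 185 in H9, and the summed T-cell markers in H9 went from 2171 to 1409 CPM. Between the same libraries, the 6 summed myeloid markers went from 0.653 to 1.45 CPM in PF382 and from 3.03 to 3.66 in TLOm1. They went from 5.15 to 2.61 CPM in HH and from 0.155 to 0.217 in H9. The part of these changes in the results below was not tested. CPM values below are on the same TMM scale and are given to compare libraries for 1 gene, not genes with each other. In bulk RNA, fewer cells of a type and less RNA per cell cannot be told apart. Nothing in the labels says that the libraries of a line came from separate cultures, so p-values measure the spread among these libraries.

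With 1 untreated library per line, differences between the untreated lines are given as values with no test. Over all 32 libraries, with treatment in the model, a line term was called for all 38 members (edgeR quasi-likelihood test with Benjamini-Hochberg adjustment, adjusted p under 0.05) and for 98.1% of all genes tested, so this count says nothing particular of the members. H9 had the highest untreated level for 17 of the 38, HH for 9, PF382 for 7 and TLOm1 for 5, against 24.2% of all genes for H9, 24.5% for HH, 26.0% for PF382 and 25.3% for TLOm1. PFKFB3, which makes the allosteric activator of phosphofructokinase, was at 103 CPM in PF382, 5.68 in TLOm1, 1.05 in HH and 295 in H9. BHLHE40, a transcriptional repressor induced by HIF, was at 4.41 CPM in PF382, 253 in TLOm1, 361 in HH and 119 in H9. AK4, a mitochondrial adenylate kinase, was at 52.7 CPM in PF382, 22.2 in TLOm1, 0.0873 in HH and 49.0 in H9, and HH was thus nearly without it.

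At 250 nM, azacitidine alone lowered much of the glycolytic pathway and several regulators above it. Of the 38 genes, 19 were lower and 0 higher at an adjusted p under 0.05, where 5.99% of all genes were called, 2.14% lower and 3.85% higher. Their median log2 fold change was -0.80, against 0.02 for all genes tested. The untreated and azacitidine libraries were ordered the same way in all 4 lines for 21 of the 38 (lower with drug), which 12.1% of all genes also showed. Among the 14 glycolytic enzymes 10 were lower, with a median of -0.70. All 14 estimates lay below 0.

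The glycolytic enzymes are given in pathway order. HK2, the inducible hexokinase that traps glucose in the cell, was at 141 CPM in PF382, 100.5 in TLOm1, 149.6 in HH and 365 in H9 without drug. At 250 nM azacitidine it was at 71.5 CPM in PF382, 86.5 in TLOm1, 87.7 in HH and 198 in H9. It was lower in each line, least in TLOm1, and fell by 0.73 ± 0.18 (log2 ± SE, adjusted p = 0.0176). GPI, which converts glucose 6-phosphate to fructose 6-phosphate, went from 773 CPM in PF382, 522 in TLOm1, 965 in HH and 1713 in H9 to 342 CPM in PF382, 431 in TLOm1, 557 in HH and 619 in H9. It fell by 0.95 ± 0.18 (adjusted p = 0.00321), with H9 losing the most. ALDOC, an aldolase best known from brain, had the largest decrease among the enzymes. Its untreated levels were 89.3 CPM in PF382, 20.6 in TLOm1, 408 in HH and 380.2 in H9, and its levels at 250 nM were 15.02 CPM in PF382, 10.9 in TLOm1, 103 in HH and 44.5 in H9. ALDOC fell by 2.19 ± 0.42 (adjusted p = 0.00321). The difference was smallest in TLOm1 and largest in H9, and every treated library lay below the untreated library of its line.

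In the payoff phase, PGK1, which makes the first ATP of the pathway, fell by 1.06 ± 0.21 (adjusted p = 0.00413). LDHA, which turns pyruvate into lactate, was at 2265 CPM in PF382, 1056 in TLOm1, 2044 in HH and 2152 in H9 without drug. With 250 nM azacitidine LDHA was at 862 CPM in PF382, 849 in TLOm1, 855 in HH and 1022 in H9. The drop was seen in all 4 lines, smallest in TLOm1, and LDHA fell by 1.07 ± 0.21 (adjusted p = 0.00419). The remaining enzymes that passed were ALDOA, TPI1, GAPDH, PGAM1 and ENO1, with log2 fold changes between -0.80 and -0.54. HK1, the constitutive hexokinase, had -0.44 ± 0.18 (adjusted p = 0.142) and was higher in HH. The phosphofructokinases PFKL (-0.04) and PFKP (-0.35) and the enolase ENO2 (-0.26) did not pass either. GAPDH, ENO1, LDHA, PGK1, PGAM1, TPI1 and ALDOA have many processed pseudogenes, and how the authors' counting treated reads shared with them is not known here.

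**Figure D1:**
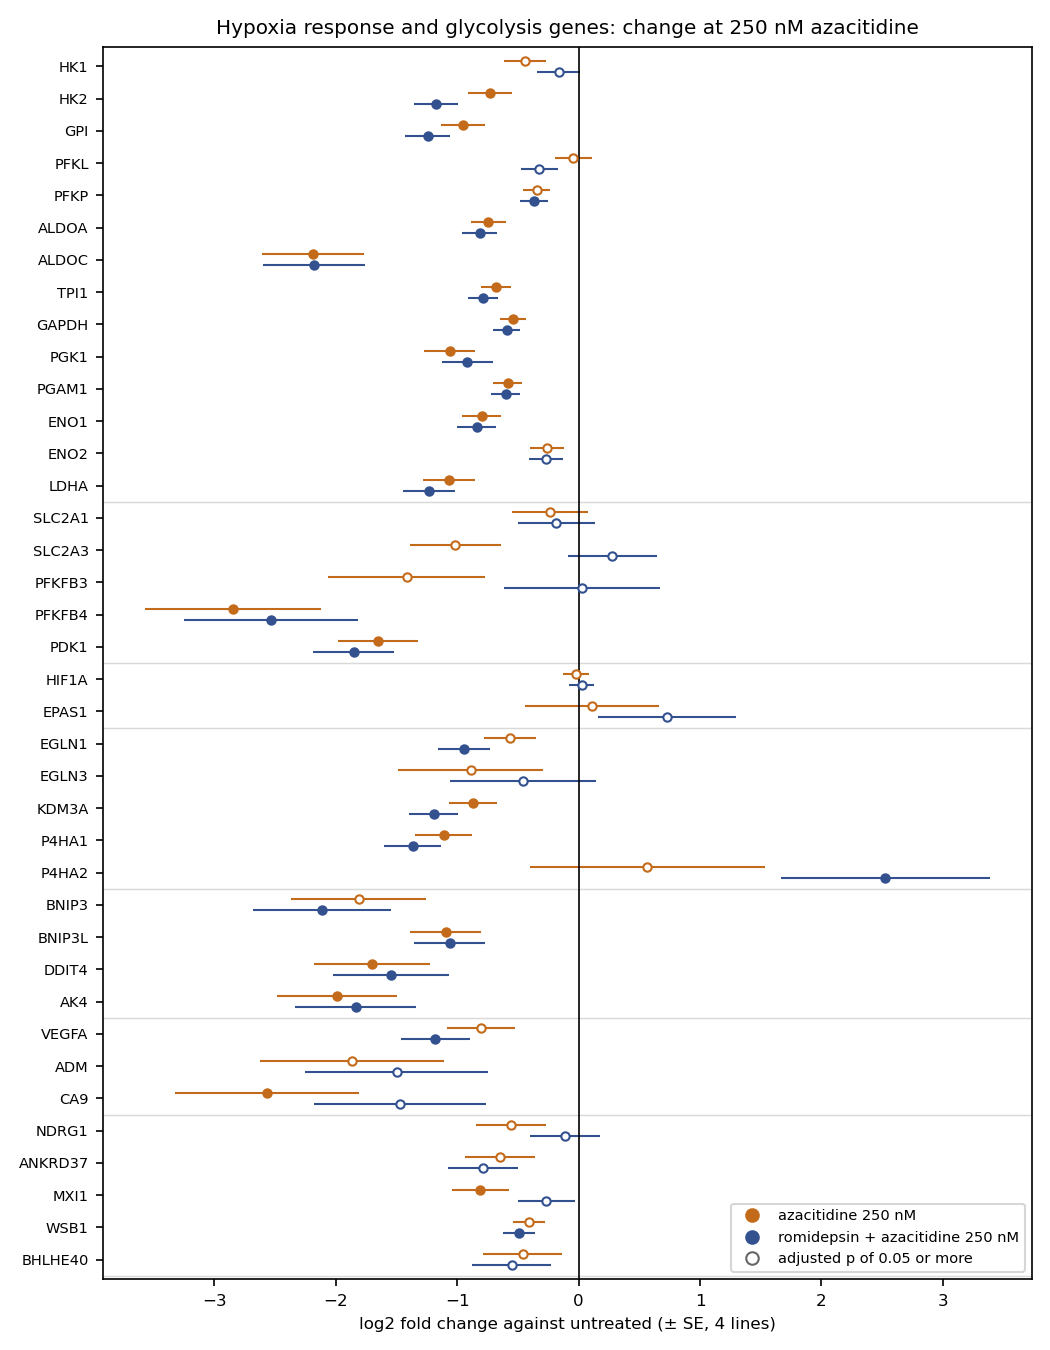
Log2 fold change against untreated (x axis) of the 38 genes (y axis, grouped by role) for azacitidine 250 nM and for romidepsin with azacitidine 250 nM, each a fit over 4 lines with its SE as a bar. Filled points passed an adjusted p of 0.05: 19 for azacitidine, all to the left of 0, and 23 for the combination, of which only P4HA2 lies to the right.

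Among the 5 glucose transporters and regulators, PFKFB4 and PDK1 passed. PFKFB4 makes and degrades fructose 2,6-bisphosphate, the activator of phosphofructokinase. It went from 46.8 CPM in PF382, 7.56 in TLOm1, 95.9 in HH and 179 in H9 to 6.63 CPM in PF382, 4.23 in TLOm1, 13.9 in HH and 8.58 in H9. The highest treated library was below the untreated libraries of PF382, HH and H9, and PFKFB4 fell by 2.85 ± 0.72 (adjusted p = 0.021). PDK1 phosphorylates pyruvate dehydrogenase and so diverts pyruvate from mitochondria. Its untreated levels were 59.9 CPM in PF382, 24.4 in TLOm1, 104 in HH and 73.6 in H9, and at 250 nM they were 14.6 CPM in PF382, 17.9 in TLOm1, 31.8 in HH and 18.1 in H9. PDK1 fell by 1.65 ± 0.33 (adjusted p = 0.00433), and its treated and untreated libraries overlapped only through the low untreated level of TLOm1. The glucose transporters SLC2A1 (GLUT1, -0.24) and SLC2A3 (GLUT3, -1.02) and PFKFB3 (-1.42) did not pass.

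Neither HIF alpha subunit passed the test. HIF1A was at 101 CPM in PF382, 58.7 in TLOm1, 101 in HH and 92.7 in H9 without drug and at 97.1 CPM in PF382, 58.8 in TLOm1, 82.3 in HH and 107 in H9 with 250 nM azacitidine. The 2 sets overlap throughout, with a log2 fold change of -0.02 ± 0.11 (adjusted p = 0.94). EPAS1, which encodes HIF-2 alpha, was at 1.96 CPM in PF382, 1.28 in TLOm1, 65.7 in HH and 8.61 in H9 and then at 1.76 CPM in PF382, 2.09 in TLOm1, 58.2 in HH and 12.1 in H9, a difference of 0.11 ± 0.55 (adjusted p = 0.942). HIF is controlled mainly through its protein, which was not measured here.

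Of the 5 dioxygenases, KDM3A and P4HA1 passed. KDM3A, a histone demethylase that removes methyl groups from lysine 9 of histone H3, went from 195 CPM in PF382, 70.9 in TLOm1, 141 in HH and 162 in H9 to 107 CPM in PF382, 51.8 in TLOm1, 64.6 in HH and 81.4 in H9 and fell by 0.87 ± 0.20 (adjusted p = 0.0118). P4HA1, a collagen prolyl hydroxylase subunit, went from 108 CPM in PF382, 65.1 in TLOm1, 81.1 in HH and 178 in H9 to 39.9 CPM in PF382, 50.9 in TLOm1, 41.4 in HH and 62.3 in H9. It fell by 1.11 ± 0.23 (adjusted p = 0.00633), again with the smallest difference in TLOm1. The oxygen sensor EGLN1 had -0.57 (adjusted p = 0.119). EGLN3, a HIF-induced sensor, had 0 counts in all 8 HH libraries, which allows up to 0.0982 to 0.196 CPM (3 counts per library, counting error only), and at most 2 counts in any TLOm1 library.

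Of the 4 mitochondrial, mTOR and nucleotide genes, BNIP3L, DDIT4 and AK4 passed. BNIP3L and its relative BNIP3 are mitophagy receptors. BNIP3L fell by 1.10 ± 0.29 (adjusted p = 0.0277). BNIP3 was at 100.4 CPM in PF382, 18.5 in TLOm1, 52.2 in HH and 176 in H9 untreated and at 13.4 CPM in PF382, 18.5 in TLOm1, 21.0 in HH and 46.9 in H9 with azacitidine. It was lower in PF382, HH and H9 and level in TLOm1, and its estimate of -1.81 ± 0.55 missed the threshold (adjusted p = 0.0545). DDIT4, an inhibitor of mTORC1, went from 155 CPM in PF382, 82.3 in TLOm1, 43.2 in HH and 458 in H9 to 27.0 CPM in PF382, 76.5 in TLOm1, 12.04 in HH and 159.7 in H9 and fell by 1.70 ± 0.47 (adjusted p = 0.0346). AK4 went to 5.49 CPM in PF382, 19.7 in TLOm1, 0 in HH and 16.03 in H9 and fell by 1.99 ± 0.50 (adjusted p = 0.0191). The difference was large in PF382 and H9 and small in TLOm1, and HH had almost no reads.

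Among secreted and surface targets only CA9 passed, at few reads. CA9 is a carbonic anhydrase of the cell surface with a part in pH control. Untreated, it was at 1.47 CPM in PF382, 0 in TLOm1, 0.175 in HH and 2.28 in H9. With azacitidine it was at 0.235 CPM in PF382, 0.0436 in TLOm1, 0.0421 in HH and 0.217 in H9. CA9 fell by 2.56 ± 0.76 (adjusted p = 0.0458). Its call was lost when any 1 of the 4 lines was left out. VEGFA, the blood vessel growth factor, had -0.80 ± 0.28 (adjusted p = 0.0919), and ADM, a vasodilator peptide, had -1.87 ± 0.76 (adjusted p = 0.15). Of the other 5 targets, MXI1, an antagonist of MYC, fell by 0.81 ± 0.23 (adjusted p = 0.0417). NDRG1, ANKRD37, WSB1 and BHLHE40 had estimates between -0.65 and -0.41 and did not pass.

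The number of calls depended on the lines. With 1 line left out, 6 members were called without H9, 8 without PF382, 10 without HH and 22 without TLOm1, and ALDOA, ALDOC, GPI and TPI1 were called in each of these 4 fits. A fit of the 8 compared libraries alone, with 3 residual degrees of freedom, called 0 members with edgeR (25 at an unadjusted p under 0.05), and DESeq2 on all libraries called 20.

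Romidepsin alone gave no call among the members. In the comparison with untreated libraries edgeR called 0 of 38 (0 at an unadjusted p under 0.05), DESeq2 also called 0, and 0.0169% of all genes were called. Estimates were negative for 33 of the 38, with a median of -0.26 against 0.01 for all genes. PF382 had the lowest values. There the median over the glycolytic enzymes was -0.55, against -0.10 in TLOm1, -0.08 in HH and 0.01 in H9. PF382 also had the highest dose of romidepsin alone, 1.25 nM against 1 nM elsewhere. This comparison thus cannot separate a difference of line from a difference of dose.

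In the fit over the 4 lines, romidepsin with 250 nM azacitidine lowered most of the glycolytic enzymes and all 4 mitochondrial, mTOR and nucleotide genes. Of these 4 genes, 3 were lower in each line, as were 13.5% of all genes. The calls of AK4, BNIP3, BNIP3L and DDIT4 were each lost without PF382 and without H9. Against untreated libraries, 22 of the 38 were lower and 1 was higher, where 8.76% of all genes were lower and 14.2% higher. The median was -0.80 over the members and 0.04 over all genes. Both this comparison and the one with azacitidine alone use the same 4 untreated libraries. Of the 14 enzymes 11 were lower, the 10 named above and PFKP, which fell by 0.37 ± 0.11 (adjusted p = 0.0242). GPI fell by 1.24 ± 0.18 (adjusted p = 8.41e-05) and HK2 by 1.18 ± 0.18 (adjusted p = 0.000122). In the combination libraries HK2 was at 44.1 CPM in PF382, 54.5 in TLOm1, 84.4 in HH and 153 in H9, below the untreated library of the same line throughout.

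Other members that passed with the combination but not with azacitidine alone were EGLN1, BNIP3, VEGFA, WSB1 and P4HA2. EGLN1 fell by 0.95 ± 0.22 (adjusted p = 0.0035), BNIP3 fell by 2.11 ± 0.57 (adjusted p = 0.0104) and WSB1, part of a ubiquitin ligase, fell by 0.49 ± 0.13 (adjusted p = 0.0101). VEGFA went from 116 CPM in PF382, 36.5 in TLOm1, 74.7 in HH and 202 in H9 to 26.6 CPM in PF382, 32.5 in TLOm1, 29.1 in HH and 112 in H9 and fell by 1.18 ± 0.28 (adjusted p = 0.00525). CA9 and MXI1, called with azacitidine alone, had -1.47 and -0.27 and did not pass here. P4HA2, a second collagen prolyl hydroxylase subunit, was the member that rose, by 2.53 ± 0.86 (adjusted p = 0.0367). P4HA2 was at 0 CPM in PF382, 0.299 in TLOm1, 0.262 in HH and 0 in H9 untreated and at 0.270 CPM in PF382, 0.149 in TLOm1, 4.88 in HH and 0.0443 in H9 with both drugs. It had 13 counts over the 4 untreated libraries and 116 over the 4 combination libraries, of which 105 were in HH, and its call was lost without HH, without PF382 and without H9. Leaving out PF382 or H9 lowered the count of called members from 23 to 15 each. The 8 libraries alone gave 1 call.

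In the fit over the 4 lines, romidepsin on top of 250 nM azacitidine gave few calls among these genes. Fits within single lines, which pool libraries with and without azacitidine, called more in PF382, TLOm1 and HH (given below). Comparing the combination with azacitidine alone at 250 nM, 1 member was higher and 0 lower, where 5.67% of all genes were called, 3.43% higher and 2.24% lower. The member was SLC2A3, which had 12.2 CPM in PF382, 19.1 in TLOm1, 6.15 in HH and 33.9 in H9 with azacitidine and 21.5 CPM in PF382, 35.3 in TLOm1, 39.0 in HH and 32.5 in H9 with both drugs. It was higher in PF382, TLOm1 and HH and about level in H9, and rose by 1.29 ± 0.38 (adjusted p = 0.0461), and the call was lost without PF382, without TLOm1 and without HH. Azacitidine on top of romidepsin, in contrast, lowered 14 members and raised 0, where 5.21% of all genes were lower and 8.92% higher. These were 11 of the 14 glycolytic enzymes with PDK1, KDM3A and P4HA1. HK2 fell by 0.96 ± 0.18 (adjusted p = 0.0013) and was the member called in each fit that left out 1 line. Without H9 1 of the 38 was called and without HH 5. No departure from additivity was called at 250 nM for the members (edgeR 0 of 38, 1 at an unadjusted p under 0.05, DESeq2 0) or for any of the 17801 genes, 0% in all. Estimates of the departure were above 0 for 32 of the 38, with a median of 0.19 against 0.0037 for all genes. In HH the romidepsin dose was 1 nM alone and 1.25 nM in the combinations, so there the added azacitidine and the higher romidepsin dose cannot be told apart in these last 2 comparisons.

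At 125 nM 9 of the 14 glycolytic enzymes were lower with the combination. Azacitidine alone called 0 members with edgeR (12 at an unadjusted p under 0.05), where 0.461% of all genes were called and 0.0955% were lower. The combination at 125 nM had 14 members lower and 0 higher, where 2.60% of all genes were lower and 4.40% higher. The difference between the 2 sets of calls was not tested. Romidepsin with azacitidine at the lowest dose in HH, 50 nM, had a median over the 24 non-glycolytic members of -0.84, against -0.09 with 50 nM azacitidine alone. In H9 the same medians were -0.28 and 0.03. Romidepsin was at 1.25 nM in this HH combination and at 1 nM in the H9 one, so line and dose cannot be told apart.

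**Figure D2:**
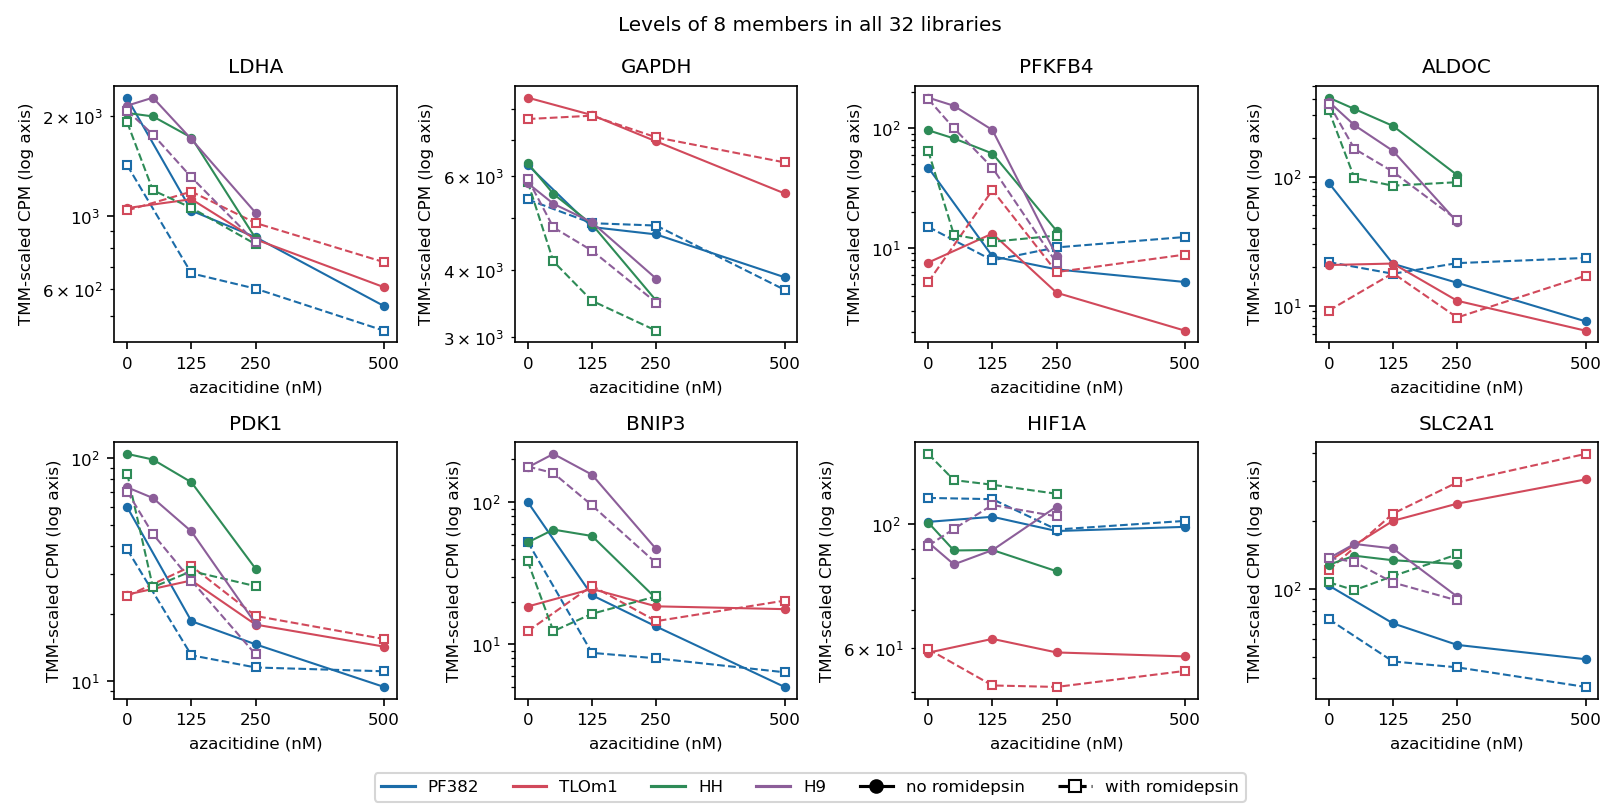
Levels of 8 members in all 32 libraries (y axis, TMM-scaled CPM, log axis) against azacitidine dose (x axis, nM), by line (colour), without romidepsin (filled circles, solid lines) and with it (open squares, dashed lines). LDHA and GAPDH descend with dose in most lines, HIF1A stays between 51.0 and 134 CPM, and SLC2A1 climbs in TLOm1 while it descends in PF382.

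Within the azacitidine-treated libraries, most glycolytic enzymes fell with dose. The slope was fitted per doubling of the dose inside each line and romidepsin arm, so that neither the untreated libraries nor differences between lines enter it. It was below 0 at an adjusted p under 0.05 for 21 of the 38 and above 0 for 1, where 28.9% of all genes had a called slope, 12.3% falling and 16.6% rising. Of the 14 glycolytic enzymes 12 had a falling slope, all but HK1 and PFKL. LDHA fell by 24.5% per doubling (log2 slope -0.41 ± 0.04, adjusted p = 2.59e-07), GPI fell by 21.0% (adjusted p = 2.24e-07) and GAPDH fell by 13.0% (adjusted p = 1.50e-06). PFKFB4 had the steepest slope, -0.82 ± 0.21 (adjusted p = 0.00781). EPAS1 was the member with a rising slope, 0.38 ± 0.09 (adjusted p = 0.00547). In PF382 with romidepsin, EPAS1 was at 8.50 CPM at 125 nM, 10.1 at 250 nM and 23.2 at 500 nM. HIF1A had a slope of 0.00 ± 0.02 (adjusted p = 0.938). With 1 line left out, between 16 (without H9) and 24 (without HH) members were called, and 16 of the 22 calls held in all 4 of these fits.

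**Figure D3:**
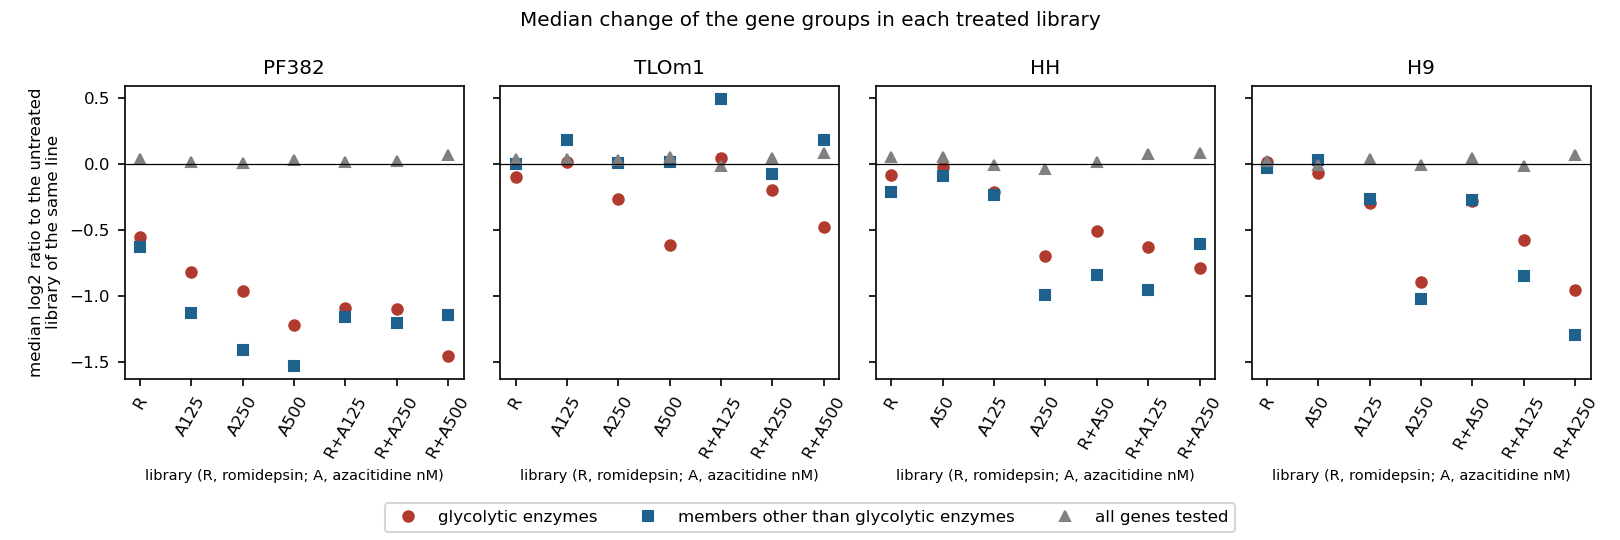
Median log2 ratio to the untreated library of the same line (y axis) in each treated library (x axis) for the 14 glycolytic enzymes, the 24 other members and all 17801 genes tested. All-gene medians stay near 0, the members' medians are low in PF382 at every treatment, and in TLOm1 the enzymes are lower at the higher doses while the other members stay near or above 0.

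Several of these genes moved to a different extent in different lines with azacitidine. One effect per line was fitted over its 6 azacitidine libraries against the 2 without azacitidine, each within its romidepsin arm. Its SE and p-values measure spread between doses and romidepsin arms, pooled over the lines, and not spread between repeat cultures of 1 condition. The doses behind this effect were higher in PF382 and TLOm1 than in HH and H9. In the romidepsin arm of HH, the combinations had 1.25 nM romidepsin and their reference library had 1 nM. In that arm azacitidine and the higher romidepsin dose cannot be told apart. In PF382 19 members were lower and 0 higher, where 8.33% of all genes were called (2.39% lower, 5.94% higher). In TLOm1 0 were lower and 2 higher, where 18.7% of all genes were called (7.68% lower, 11.0% higher). In HH 1 was lower and 1 higher, where 5.87% were called (1.80% lower, 4.07% higher). In H9 4 were lower and 0 higher, where 5.86% were called (3.06% lower, 2.81% higher). The test that the 4 effects are equal was passed by 8 of the 38, against 10.7% of all genes: SLC2A1, BHLHE40, ADM, NDRG1, BNIP3, HK1, PFKFB3 and AK4. With the middle dose left out 0 members were called (9 at an unadjusted p under 0.05), and with the highest dose left out 20. For single lines, leaving out the middle dose left 3 calls in PF382, 1 in TLOm1, and 0 in HH and H9.

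SLC2A1, the main glucose transporter, showed opposite directions. In TLOm1 it was at 133 CPM untreated, 200.5 at 125 nM, 239 at 250 nM and 306 at 500 nM. In PF382 the same series was 104, 70.3, 56.4 and 48.7 CPM. SLC2A1 thus rose by 1.11 ± 0.23 in TLOm1 (adjusted p = 0.00209) and fell by 0.80 ± 0.20 in PF382 (adjusted p = 0.0166), and the test of equal effects gave an adjusted p of 0.00252. NDRG1, a stress-induced gene, rose in TLOm1 from 108 CPM to 209 at 500 nM and to 368 with romidepsin, an effect of 1.09 ± 0.28 (adjusted p = 0.00972). In PF382 it went from 63.6 to 22.2 CPM at 500 nM, with an effect of -0.73 ± 0.26 (adjusted p = 0.0882). BNIP3 fell in PF382 from 100.4 CPM to 22.2, 13.4 and 5.02 at the 3 doses, by 2.84 ± 0.47 (adjusted p = 0.000608). In TLOm1 BNIP3 stayed between 12.4 and 25.8 CPM in all 8 libraries.

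PFKFB3 and AK4 also had unequal effects, with the lowest estimate in PF382. PFKFB3 fell in PF382 by 1.64 ± 0.41 (adjusted p = 0.0139), from 103 CPM to 16.1 at 500 nM. In TLOm1 it was at 5.68 untreated, 12.3 at 500 nM and 54.2 with both drugs, and its azacitidine effect there was 1.26 ± 0.54 (adjusted p = 0.0997). AK4 fell in PF382 by 2.58 ± 0.41 (adjusted p = 0.000418), from 52.7 to 1.67 CPM. ADM and BHLHE40 rest on low levels in PF382, where ADM went from 1.96 CPM to at most 0.601 in any treated library and BHLHE40 from 4.41 to at most 1.08. HK1 had -0.52 ± 0.15 in H9 (adjusted p = 0.0368) and 0.34 ± 0.16 in HH (adjusted p = 0.211). The enzymes of lower glycolysis were low at 500 nM in TLOm1 as well: LDHA went from 1056 to 609 CPM and ENO1 from 3496 to 2251. The median over the 14 enzymes in that library was -0.61 and over the other 24 members 0.01.

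**Figure D4:**
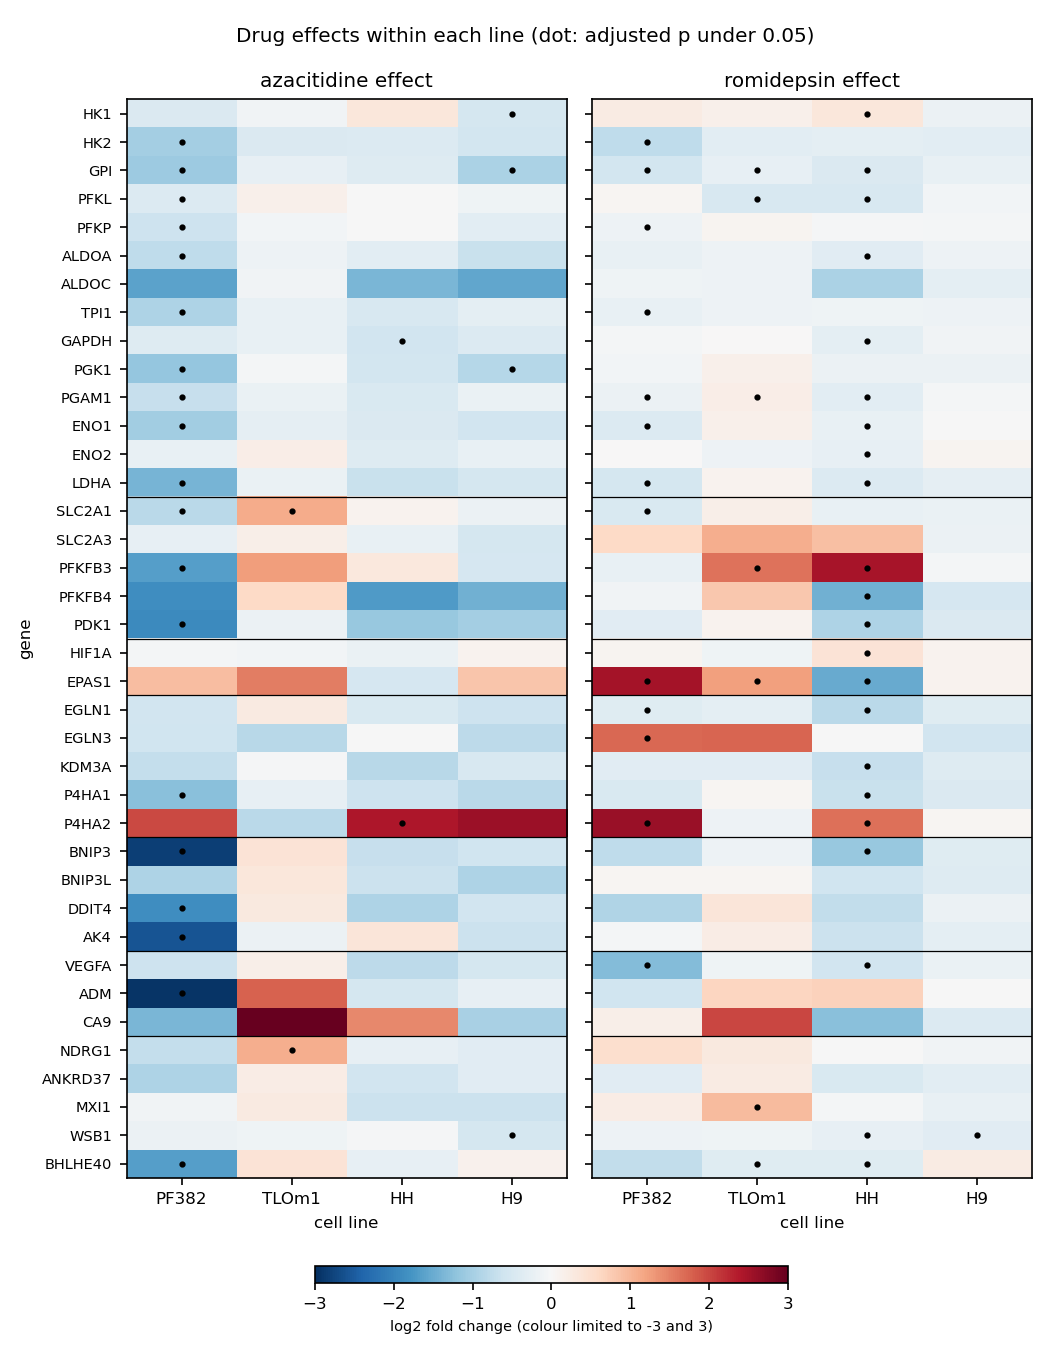
Drug effects fitted within each line (x axis) for the 38 genes (y axis, grouped by role), azacitidine on the left and romidepsin on the right, as log2 fold change in colour limited to -3 and 3. Dots mark an adjusted p under 0.05: with azacitidine 19 in PF382, 2 in TLOm1, 2 in HH and 4 in H9, and with romidepsin 13, 7, 22 and 1.

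Romidepsin effects were fitted in the same way, over 4 libraries with the drug and 4 without in each line, matched for azacitidine dose. The romidepsin dose was 1.25 nM in PF382 and 1 nM in TLOm1 and H9. In HH it was 1 nM without azacitidine and 1.25 nM with it, so the HH effect pools both doses. Line and romidepsin dose cannot be told apart in the counts that follow. In PF382 3 members were higher and 10 lower, where 30.7% of all genes were called (19.1% higher, 11.6% lower). In TLOm1 4 were higher and 3 lower, where 32.6% were called (17.1% higher, 15.5% lower). In HH 4 were higher and 18 lower, where 27.7% were called (2498 of 17801 genes higher, 13.7% lower). In H9 0 were higher and 1 lower, where 4.47% were called (3.64% higher, 0.831% lower). The single call in H9 was WSB1, -0.35 ± 0.09 (adjusted p = 0.0214). GPI was called lower in PF382, TLOm1 and HH, with log2 fold changes of -0.54, -0.24 and -0.44. In H9 it had -0.23 (adjusted p = 0.123), and its test of equal effects gave an adjusted p of 0.0834. The effects differed between lines for 14 of the 38, against 33.0% of all genes. Leaving out the middle azacitidine dose lowered these 14 to 5, the calls in HH from 22 to 6, in PF382 from 13 to 8 and in TLOm1 from 7 to 4. Leaving out the lowest dose lowered the 14 to 6 and the 22 in HH to 10, and leaving out the libraries without azacitidine raised the calls in TLOm1 to 13.

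EPAS1 had the widest spread of romidepsin effects. It rose by 2.50 ± 0.30 in PF382 (adjusted p = 1.21e-05), an effect pooled over the libraries with and without azacitidine. There EPAS1 was at 1.96 CPM untreated and 4.17 with romidepsin, a smaller change than the pooled effect. EPAS1 also rose by 1.24 ± 0.33 in TLOm1 (adjusted p = 0.00906). In HH, the line with the most EPAS1, it went from 65.7 to 24.7 CPM and fell by 1.51 ± 0.23 (adjusted p = 0.000138). HIF1A rose in HH, from 101 to 134 CPM, an effect of 0.42 ± 0.06 (adjusted p = 2.96e-05). VEGFA fell by 1.30 ± 0.11 in PF382 (adjusted p = 8.37e-08), from 116 to 44.0 CPM with romidepsin alone, and by 0.57 ± 0.11 in HH (adjusted p = 0.001). PFKFB3 rose in TLOm1 by 1.62 ± 0.35 (adjusted p = 0.00296) and in HH by 2.48 ± 0.68 (adjusted p = 0.0153), where it stayed at or under 7.25 CPM. MXI1 rose in TLOm1 by 0.95 ± 0.16 (adjusted p = 0.000345). EGLN3 rose in PF382 by 1.72 ± 0.31 (adjusted p = 0.00051), pooled in the same way. It was at 1.06 CPM untreated and 1.68 with romidepsin, again a smaller change than the pooled effect. BHLHE40 fell in TLOm1 by 0.35 ± 0.13 and in HH by 0.37 ± 0.13 (adjusted p = 0.0447 and 0.0421).

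Other genes of these pathways were read from 2 lists of related genes. Of 28 further genes of glycolysis and pyruvate use, 25 were tested, and at 250 nM azacitidine 4 were lower and 0 higher, where 2.14% of all genes were lower and 3.85% higher. These were PKM, the last kinase of glycolysis (-0.58, adjusted p = 0.00194), PFKM, the muscle phosphofructokinase (-0.47), PDK3, a relative of PDK1 (-0.57), and LDHB (-0.36). The median log2 fold change of the 25 was -0.10, against 0.02 for all genes tested. Of 45 further genes of the HIF pathway 41 were tested, 9 were lower and 4 higher, with a median of -0.33. The lower ones included MIR210HG, the host transcript of the hypoxia microRNA miR-210, which went from 31.1 CPM in PF382, 5.55 in TLOm1, 43.5 in HH and 27.6 in H9 to 3.76 CPM in PF382, 2.53 in TLOm1, 8.59 in HH and 2.75 in H9. It was lower in all 4 lines and fell by 2.60 ± 0.74 (adjusted p = 0.0384). GBE1, which branches glycogen, fell by 1.25 ± 0.35 and FAM162A, a mitochondrial HIF target, fell by 1.17 ± 0.24. VHL, the subunit that recognises hydroxylated HIF, was 1 of the 4 higher genes of this list and rose by 0.28 ± 0.08 (adjusted p = 0.0271). With the combination, 7 genes of the first list were lower and 4 higher, and 13 of the second were lower and 6 higher, where 8.76% of all genes were lower and 14.2% higher. MIR210HG fell by 3.84 ± 0.81 (adjusted p = 0.00187) in that comparison.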

How the data were processed

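Read counts per gene symbol of 32 libraries were taken as the authors deposited them. The submitters' processing notes name STAR, DESeq2 and limma, without versions, and the build GRCh37.p2, but no source used here names the counting program or its strand and multi-read settings. The labels' molecule field and extract protocol differ on whether RNA was selected by poly(A) or depleted of ribosomal RNA. Genes were filtered with filterByExpr (minimum count 10, minimum total 15), which left 17801 of 25559 symbols, and tested with edgeR 4.0.16 (R 4.3.3): TMM scaling, a cell line term, robust quasi-likelihood fits and Benjamini-Hochberg adjustment over all genes tested at a threshold of 0.05. The SE of a log2 fold change was derived from the F statistic. Models were 10 treatment groups plus line, a dose slope within line and romidepsin arm, and drug effects within each line. They left 19 residual degrees of freedom for the groups, 15 for the slope, 12 for romidepsin by line and 20 for azacitidine by line. Log2 ratios of single libraries used a prior of 0.5 counts. Totals of 16175077 to 32496676 counts set the precision.

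Libraries were paired by cell line, which the labels give: all 60 same-line pairs of libraries had correlated deviations, with r between 0.833 and 0.955. Only treatment group means were removed, so the deviations hold the differences between lines, and r says nothing further of pairing. Alternatives were DESeq2 1.42.0, its size factors in edgeR, no filter on low counts, no line term, the compared libraries alone, leaving out each line or dose, and, chosen after seeing the data, the highest dose of each line. Fits were tested on simulated data. The members, gene lists and tests were chosen with earlier results of these data known. Values of single libraries are given for the 14 members with the largest absolute log2 change among those called with 250 nM azacitidine, alone or with romidepsin, for HIF1A and EPAS1, and for members whose effects differed most between lines. Those of SLC2A1, SLC2A3, NDRG1, BHLHE40, ENO1 and MIR210HG were chosen after their values were seen.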

Additional observations from a re-analysis of the deposited data

Results flagged for a closer look

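The size of the drug effect differed between the 4 lines for the members below, by a test in edgeR that the 4 effects are equal, adjusted over all genes. For romidepsin the adjusted p was 6.81e-06 for EPAS1, 5.26e-05 for VEGFA, 0.000174 for ENO1, 0.000503 for HIF1A, 0.00213 for EGLN3, 0.00269 for PGAM1, 0.00269 for PFKL, 0.00368 for MXI1, 0.00726 for PFKFB3, 0.00904 for SLC2A1, 0.0105 for LDHA, 0.0233 for BHLHE40, 0.0285 for GAPDH and 0.0300 for HK1. For azacitidine it was 0.00252 for SLC2A1, 0.00496 for BHLHE40, 0.00747 for ADM, 0.0152 for NDRG1, 0.0237 for BNIP3, 0.0314 for HK1, 0.0335 for PFKFB3 and 0.0425 for AK4. Romidepsin and azacitidine doses were not the same in all lines, so line and dose cannot be told apart in these tests. Among all genes, 33.0% passed the test for romidepsin and 10.7% the test for azacitidine.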

How the results depend on the processing

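Without the line term (no replicate block), 0 members were called for azacitidine 250 nM, for the combination, for romidepsin added to azacitidine and for azacitidine added to romidepsin (10, 10, 0 and 6 at an unadjusted p under 0.05 in edgeR). With only the compared libraries these counts were 0, 1, 0 and 1, and without the filter on low counts romidepsin added to azacitidine gave 0. Leaving out 1 line gave 6 to 22 calls for azacitidine 250 nM, 15 to 26 for the combination, 0 to 1 for romidepsin added to azacitidine, 1 to 19 for azacitidine added to romidepsin, 16 to 24 for the slope and 33 to 37 for differences between lines. Leaving out 1 dose gave, for romidepsin, 8 to 13 in PF382, 4 to 13 in TLOm1, 6 to 24 in HH, 0 to 4 in H9 and 5 to 19 for unequal effects. For azacitidine it gave 3 to 23 in PF382, 1 to 4 in TLOm1, 0 to 8 in HH, 0 to 16 in H9 and 0 to 20 for unequal effects. The cause of these differences was not tested. DESeq2 called 20, 22, 1 and 15 members in the first 4 comparisons, and the highest dose of each line in place of 250 nM gave 21 for azacitidine and 25 for the combination. Of 1078 values of single genes under these alternatives, 772 kept direction and call, 306 kept direction and lost the call, and 0 reversed. Depth limits CA9, ADM, EGLN3 and P4HA2, which had few reads in several lines.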
